A study of Mus musculus with 70 samples.

Results

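CTCF occupancy of the embryonic mouse limb was compared with that of 6 other tissues at E12.5. The others were liver (LV), craniofacial prominence (CF), neural tube (NT), hindbrain (HB), midbrain (MB) and forebrain (FB), and limb is written LM. All were dissected from C57BL/6N embryos, and the labels name no allele or treatment. Each has 1 list of CTCF ChIP-seq peaks from 2 pooled libraries with input DNA as control, and 2 H3K4me3 PLAC-seq libraries. Both CTCF libraries of LV are technical replicates by their titles, and those of the other 6 tissues are biological replicates. An LM-only peak is a peak of the LM list that overlaps no peak of the other 6 lists by even 1 bp, and an LM-absent site is a merged site with a peak in all 6 other lists and none in LM. By these rules 3346 of the 49512 LM peaks were LM-only (6.76%) and 556 sites were LM-absent, together 3902 members among 72232 merged sites of the 7 lists. A whole limb bud mixes mesenchyme, cartilage precursors, muscle precursors, ectoderm, vessels and blood, so a weaker site in all cells and a site held by fewer cells cannot be told apart in these bulk samples. Each list is 1 pooled value per tissue, so differences in CTCF between tissues carry no replicate test.

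CTCF recognises a long, directional DNA motif through its zinc fingers and halts the cohesin complex as it extrudes chromatin loops, which places loop ends and domain boundaries. Many CTCF sites are held in most cell types, and others differ between tissues. In the limb, boundaries and loops have been studied above all at the HoxA and HoxD clusters and around signalling genes, where distant enhancers act on promoters of transcription factors and ligands that pattern the bud.

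The sites below are shown because the results turn on them: the consensus of the motif, the strongest sites found in LM alone, 3 at limb genes, the most repeated one, and sites that LM lacks or holds weakly. Capitals mark the 19 bases of the best match to the CTCF motif, lower case the 5 bases on each side, and each is read 5′ to 3′ on the strand of the motif in GRCm38 (mm10).
Motif consensus: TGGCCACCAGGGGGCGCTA
Rora intron, LM-only, chr9:68942569-68942597, plus strand: ctactAGTCCAGCAGGAGGCAGGCtctgg
Eya4 intron, LM-only, chr10:23176729-23176757, plus strand: actttTGGACACAAGAGGGCAGAGtctct
Hand2, LM-only, chr8:57333511-57333539, minus strand: ctgctCGCACACCAGATGGCAGCAacata
Tbx4 promoter, LM-only, chr11:85896386-85896414, plus strand: tgaaaTGGCCTGAAGGGGGACAGGgttct
Osr1, LM-only, chr12:9453985-9454013, plus strand: cacagAGACCACAAGAGGGCACTGgatcc
Prrx2 intron, LM-only and the repeated word, chr2:30843612-30843640, plus strand: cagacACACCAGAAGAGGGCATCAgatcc
Tnk2 promoter, LM-absent, chr16:32645834-32645862, minus strand: aggctCCACCTCTAGGCGGCGCCAagaag
Mta3 intron, LM-absent, chr17:83732996-83733024, minus strand: tacaaCGGCCAGGAGAGGGCGCTGgatcc
Tbx3, LM-absent, chr5:119571842-119571870, minus strand: tgtgaTGACCAGAAGAGGGCACTGcatcc
Onecut1 intron, weak in LM, chr9:74868031-74868059, minus strand: ccaggTGGCCACTAGGGGTCGTGAgcagc
Sema4f, strong in LM, chr6:82881906-82881934, minus strand: catggCCAACGCGCGAGGGCGCTCggggt

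LM-only peaks were weak and narrow. Their median fold enrichment over input at the summit, the measure that the peak caller gives, was 3.98 with a highest value of 10.6, against 13.6 for the 29929 LM peaks (60.4%) that overlapped a peak of all 6 other tissues. Of the LM-only peaks, 86.5% lay below a fold enrichment of 5, and 2 reached 10. Their median width was 222 bp against 549 bp. The enrichment rose with every further tissue that shared the peak, from 4.38 with 1 other tissue to 6.14 with 5. A weak peak falls below the caller's threshold in another list more easily than a strong one, so the low enrichment is bound up with the rule and is given as a description. Among the LM-only peaks, 112 lay within 100 bp and 403 within 500 bp of a peak of another tissue, while 25 of the 2681 peaks shared with 1 other tissue were shared by fewer than 20 bp. The number of LM-only peaks fell to 845 when only peaks with a −log10 p of at least 10 were compared in every list.

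**Figure D1:**
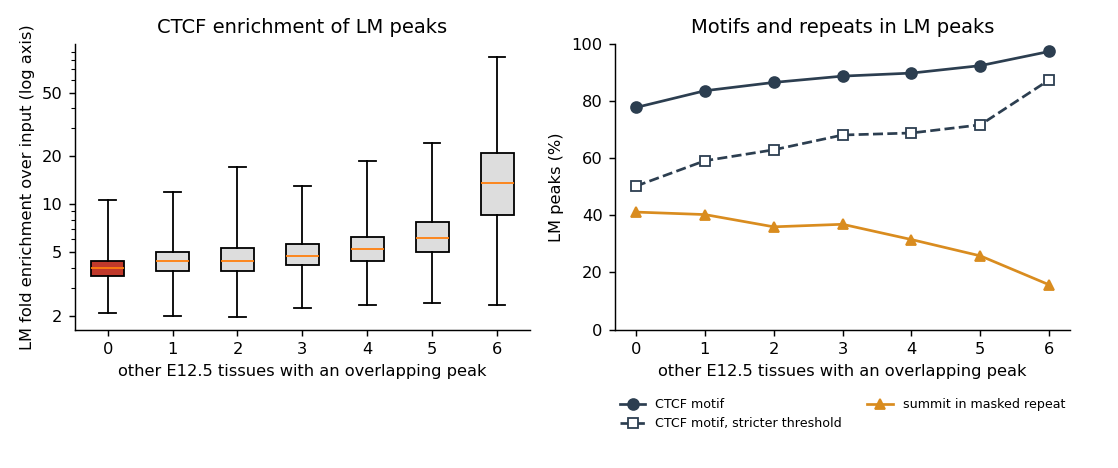
LM peaks by the number of other E12.5 tissues with an overlapping peak. Left, fold enrichment over input on a log axis, where the line is the median, the box the middle 50% of peaks and the whiskers the lowest and highest peak: LM-only peaks, in red, have a median of 3.98 and peaks of all 7 tissues 13.6. Right, percent of these peaks with a CTCF motif, with a motif at the stricter threshold, and with a summit in masked repeat sequence: motifs go from 77.8% to 97.4% and repeats from 41.2% to 15.7%.

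The count of peaks that only 1 tissue has was similar in several tissues. It was 3346 in LM, 3345 in LV, 3052 in CF, 2522 in MB, 2189 in HB, 2187 in NT and 842 in FB. As a share of each list, LM (6.76%) lay between CF (6.01%) and LV (7.36%). LM peaks shared with exactly 1 other tissue were shared most often with CF, at 844 of 2681, and least often with FB, at 175. CF, the longest list with 50804 peaks, also overlapped the largest share of all LM peaks (83.4%), and LV the smallest (73.6%). This ranking was not particular to LM. CF also overlapped the largest share of the peaks of FB (90.0%), MB (83.9%), HB (85.1%), NT (85.4%) and LV (82.9%). LV overlapped the smallest share of the peaks of every other tissue.

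LM lacked 556 sites of the other 6 tissues, close to FB (553), HB (694) and NT (683), above MB (340) and CF (274), and below LV (2446). LM-absent sites were weaker than most shared sites in the tissues that hold them. Their median fold enrichment ran from 5.72 in NT to 6.69 in LV, against 13.2 in HB to 16.4 in MB at the 29175 sites of all 7 tissues.

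The strongest LM-only peaks lay in introns or far from genes. The highest, at a fold enrichment of 10.6, was in an intron of Rora, which encodes an orphan nuclear receptor, 252995 bp from the nearest TSS. The next, at 10.5, lay 28381 bp from Dupd1, a dual-specificity phosphatase gene. The third, at 9.42, was in an intron of Eya4, a transcriptional co-activator in muscle and sensory organs, 8857 bp from a TSS. Peaks near Bbs9 (8.54), a gene of the BBSome that serves primary cilia, Pros1 (8.24), which encodes the anticoagulant protein S, Tanc1 (8.18) and Farp1 (7.89) came after them. The 15 strongest also had Pabpc4l, Ccdc91, Srgap1, Il9r, Fer, Lgals12, Lrmp and Xxylt1 as nearest genes, with values from 7.35 to 7.66. Of these only the peak of Fer, a cytoplasmic tyrosine kinase gene, was in a promoter, 247 bp from a TSS, and only the peak near Lrmp held no motif.

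Some genes had several LM-only peaks within 100 kb. 1700018B08Rik, Atp23 and Mecom had 5 each, and Rbms3, Cacna1a, Dab2ip, Fry, Smg6, Ldlrad4 and Syne2 had 4 each. Mecom encodes the zinc-finger factor EVI1, and Cacna1a a neuronal calcium channel. The strongest of these peaks had a fold enrichment of 4.42 at Atp23, 4.71 at Mecom and 5.85 at 1700018B08Rik, and that of Rbms3 was higher still. Further genes, such as Zfhx3 and Smyd3, also had 4.

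Most LM-only peaks carried the CTCF motif, though less often than shared peaks. The study searched its replicated peaks for the motif and went on with those that held it, and whether the deposited lists stand before that step is not stated, so the shares may in part reflect it. The motif, a matrix of 19 bp estimated from peaks of all 7 tissues and searched on both strands, was found in 77.8% of LM-only peaks, in 83.6% of LM peaks shared with 1 other tissue and in 97.4% of those shared with all 6. Some LM-only peaks without it scored far below the threshold of 6.88, such as a peak near Bmp4 (-2.48) and another near Sall3 (-2.5). The lists are thus not limited to peaks that hold the motif by this matrix, which is not the study's own. At a stricter threshold the shares were 50.2%, 59.1% and 87.4%. Peak width differs between these classes. In windows of 200 bp around the summit, 74.8% of LM-only peaks and 96.2% of peaks of all 7 tissues held it, against 11.4% of windows of the same length 5 kb to the right of every LM peak. Among RefSeq promoters of 300 bp in GRCm38, 34.8% held it. Within the motif, a CpG dinucleotide, which can be methylated, was present in 31.7% of the sites in LM-only peaks and in 48.1% of those in peaks of all 7 tissues. LM-absent sites were closer to the shared ones, with a motif in 94.8%.

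Repeat sequence was common at both classes. The summit lay in masked repeat in 41.2% of LM-only peaks and 36.7% of LM-absent sites, against 15.7% of LM peaks of all 7 tissues. The other tissues' own peaks had similar shares, from 26.6% in NT to 38.6% in HB. In mouse, copies of the B2 short interspersed element are known to carry CTCF motifs. No repeat families were annotated here.

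A small number of exact words recurred among LM-only peaks. Positions are counted from 1 at the 5′ end of the 19 bases. The most frequent and its 1-base variant A16G are shown because their frequency differs most plainly between LM-only and shared peaks. The word C2G with A3G is shown because it was the most frequent of these among peaks of all 7 tissues.
Most frequent word: ACACCAGAAGAGGGCATCA
With A16G: ACACCAGAAGAGGGCGTCA
With C2G and A3G: AGGCCAGAAGAGGGCATCA
The most frequent word was the best match in 206 of the 2505 LM-only peaks with a motif (8.22%), in 115 of the 2194 shared with 1 other tissue (5.24%) and in 27 of the 28332 of all 7 tissues (0.0953%). The word with A16G was found in 103 LM-only peaks and in 18 of all 7 tissues. The word with C2G and A3G differed little by share, with 30 LM-only peaks (1.20%) and 227 of all 7 tissues (0.801%). The mm10 genome holds 11719 copies of the most frequent word, of which LM-only peaks cover 1.76%. The word was also frequent among the peaks of other single tissues, from 2.92% in NT to 9.81% in HB and 8.22% in LM. Only 1 LM-absent site had it. Words found at 5 or more peaks of a class made up 27.3% of LM-only sites, 8.70% of those of all 7 tissues and 3.68% of LM-absent sites. A word reaches 5 more easily in a larger class. The classes hold 2505, 28332 and 517 sites, so these shares are not directly comparable.

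LM-only peaks lay near many genes of limb patterning. The list of 85 genes holds transcription factors and signalling genes of the limb bud, 84 of them annotated, and 31 of those (36.9%) were the nearest gene of an LM-only peak, where 12.3% of all 21911 protein-coding genes were. Of the listed genes, 98.8% were nearest to some LM peak, against 67.2% of all genes. The share nearest to an LM-only peak was 42.1% at cartilage and muscle genes and 33.3% at CTCF and cohesin genes. The remaining lists ran from 11.1% at erythroid genes to 21.4% at endothelial genes. Limb patterning genes were nearest to a CF-only peak in 28.6% and to an NT-only peak in 20.2%, against 11.8% and 8.59% of all genes. They were below all genes only in LV (5.95% against 12.5%) and FB (2.38% against 3.63%). Counted by peaks, 47 of the 415 LM peaks nearest to these genes were LM-only (11.3%, 95% Wilson interval 8.62 to 14.7), against 6.76% of all LM peaks. The interval covers counting error only, and peaks of 1 gene are not independent. Neural genes had a lower share, with 5 of 123 peaks (4.07%), and cartilage and muscle genes had 21 of 222 (9.46%). Lists with few peaks reached the share of the limb genes as well, with 6 of 52 (11.5%) at CTCF and cohesin genes and 3 of 25 (12.0%) at genes of epidermal ectoderm. Housekeeping genes had 3 of 41 (7.32%), endothelial genes 3 of 60 (5.00%) and erythroid genes 2 of 42 (4.76%). This share and its alternatives were chosen after seeing the data. Among the cartilage and muscle genes nearest to LM-only peaks were Sox9, the main factor of chondrogenesis, and Sox5 and Sox6, which act with it. Nog, a BMP antagonist, Pthlh and the muscle gene Myf5 were others. Of the 21 peaks, 18 lay within 100 kb of a TSS, while a peak of Sox9 lay 606180 bp away.

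The same list was set against the peaks that other tissues have alone. In CF 8.81% of the peaks at limb patterning genes were found in CF alone, against 6.01% of all CF peaks. The values were 5.57% against 4.59% in NT, 4.38% against 5.07% in MB and 4.26% against 4.69% in HB. In FB they were 0.606% against 1.92%, and in LV 1.86% against 7.36%. LM had the highest share and CF the next, and many of these genes also act in the facial primordia. Without the CF list, 16.1% of the peaks at limb patterning genes were LM-only, against 8.46% of all LM peaks. In LV, genes of the erythroid and haematopoietic list had the highest share, with 13 of 55 peaks (23.6%). Neural genes had 9.20% in MB, 7.04% in HB and 6.62% in NT. These shares have no replicate test.

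**Figure D2:**
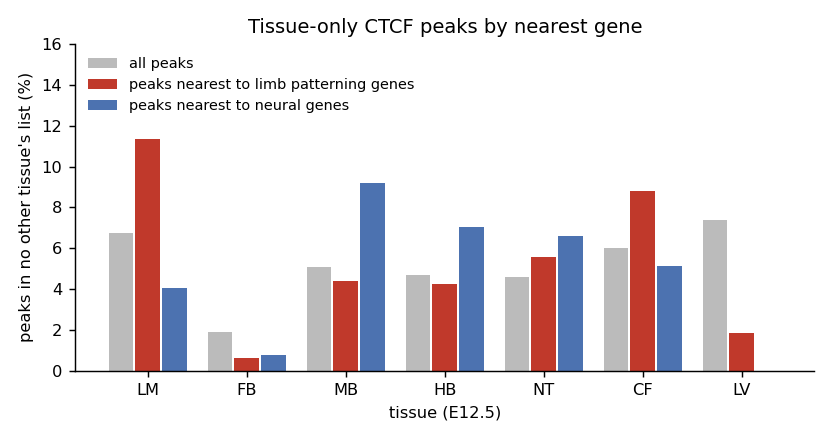
Percent of each tissue's CTCF peaks that overlap no peak of the other 6 tissues, for all peaks (grey), peaks nearest to limb patterning genes (red) and peaks nearest to neural genes (blue). The red bar is highest in LM, at 11.3% over 6.76% for all peaks, and next in CF, at 8.81% over 6.01%. LV has no blue bar because none of its peaks at neural genes was LV-only.

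At T-box genes, which specify limb identity and outgrowth, LM-only peaks lay near Tbx4, Tbx2 and Tbx5. Tbx4, which acts in the hindlimb, had a peak 382 bp from its TSS with a fold enrichment of 5.89 and another of 3.74 at 9790 bp. Tbx2, expressed at the margins of the bud, had a promoter peak of 4.12, 395 bp from its TSS and 37 bp from a peak of another tissue. Tbx5, which starts the forelimb bud, had a peak of 4.42 at 42756 bp. Tbx3 had the only LM-absent site of a T-box gene, 98834 bp away, with fold enrichments from 5.21 in NT to 9.71 in FB.

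Hand2, a bHLH factor of the posterior bud that acts upstream of Shh, had the strongest LM-only peak of the list, at 7.07 and 12557 bp from its TSS. A second peak of 4.12 lay next to it. Gli3, the transcription factor that transduces hedgehog signals, had peaks of 5.59 and 3.53, the stronger one 388006 bp away. Of the homeobox genes, En1 had a peak of 5.89, Evx2 of 5.59 and Prrx2 of 5.30, and Lmx1b, which sets dorsal identity, had 3 peaks from 3.53 to 5.01. Hoxa11, needed for the middle segment of the limb, had a peak of 4.99 and Hoxa10 a promoter peak of 4.15 that holds no motif. Lhx2 had 3 peaks from 3.04 to 4.12. Msx1, Irx5 and Fgf9 had 2 each. Rarb, a retinoic acid receptor gene, had 5 with values from 3.50 to 4.68. Signalling genes with peaks were Bmp7 (5.01), Spry2 and Spry4 (both 4.42), Bmp4 (3.83) and Cyp26b1 (3.87), which degrades retinoic acid.

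Over all 47 peaks at limb patterning genes, the fold enrichment ran from 3.04 to 7.07 with a median of 4.12. Of the 47, 36 held the motif, 5 lay in promoters and 12 lay over 100 kb from the TSS. The repeated word was the site in 6 of them, at Evx2, Prrx2, Lmx1b, Lhx2, Ets2 and Gli3. The site at Osr1 had the highest motif score of the 47.

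The members were also looked up in lists of the same tissue as FB at later stages. There are 5 such lists, from E13.5 to birth (P0), with 47701 to 62782 peaks each. By the titles E14.5 has technical replicates and P0 a single library, and these are the longest lists, with 22.3% and 24.3% of the LM-only peaks. The rule requires that LM-only peaks lack an FB peak at E12.5 and that LM-absent sites have one, so the gap between these classes is largely set by the rule and the shares are a description. Of the LM-only peaks, 46.4% overlapped a peak of at least 1 of these 5 lists, though FB at E12.5 had none there, and 23 of 3346 (0.687%) overlapped a peak of all 5. The remaining 1794 had no peak in any list of later forebrain. LM peaks shared with 1 other tissue were found in 76.6%, and those of all 7 tissues in 99.99%. The peaks of the other single tissues ranged from 37.1% in LV to 64.0% in HB. LM-absent sites were found in later forebrain in 99.5% of cases, and 332 of 556 (59.7%) in all 5 lists. At limb patterning genes, 28 of the 47 LM-only peaks were in none of the 5 lists.

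The strongest LM-absent sites were spread over genes of many functions. At the promoter of Tnk2, a tyrosine kinase gene, the fold enrichment was 16.6 in FB, 13.2 in MB, 9.74 in HB, 11.1 in NT, 12.4 in CF and 31.8 in LV, with no LM peak. In an intron of Mta3, a subunit of the NuRD complex, it was 14.7 in FB, 9.41 in MB, 9.65 in HB, 13.2 in NT, 9.25 in CF and 32.9 in LV. Both sites were highest in LV. Sites near Smim27 (mean 14.4, in a coding exon of Topors), Pcbd1 (11.8), Ptprj (11.4), Lin9 (11.3), Trim24 (10.8), Rpl34 (10.7) and Rasgef1b (10.5) were among those that followed. Of the limb patterning genes, Tbx3 (mean 7.46) and Dusp6 (mean 5.64), which dampens FGF signalling, were nearest to an LM-absent site.

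Few of the sites held by all 7 tissues differed in strength in LM. With each list scaled to the same median, LM was at least 2-fold above the highest other tissue at 2 of 29175 sites (0.00686%) and at or below 0.5 of the lowest at 29 (0.0994%). The counts in the other tissues were 0 to 2 higher and 9 to 25 lower, apart from LV with 474 and 619. The 2 higher sites were near Sema4f, a semaphorin gene, and in an intron of Arhgef11. At Sema4f the enrichment was 18.3 in LM and 6.32 to 8.77 elsewhere, and at Arhgef11 it was 10.6 against 2.82 to 5.87. The strongest reduction was at Onecut1, a homeobox gene of neurons and liver, where an intronic site had 5.08 in LM and 15.6 to 27.8 in the others. It was followed by sites near Tulp3 (5.17 against 16.6 to 22.4), Lrrn4cl (3.22 against 9.33 to 13.8), Rpl38 (5.37 against 12.96 to 24.96), Kcnk16 (12.1 against 31.7 to 39.3) and Ddr1, Spag1, Klhdc4, Lypd3 and 4930568D16Rik. Of the 29 lower sites, 96.6% held the motif and 34.5% lay in repeats. The number past the rule was 31 in all, 62 without the scaling, and 63 with the second deposited lists.

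H3K4me3 PLAC-seq enriches ligated contacts of marked promoters, and the deposited calls list pairs of 10-kb bins at 20 kb to 1 Mb on the autosomes. The 14 libraries at E12.5 held 11396 to 33700 interactions, 12461 and 20775 of them in LM. A pair that is not listed may lie below the threshold, or may have no H3K4me3 peak in that tissue. The LM libraries matched their label at markers of limb mesenchyme and of neural tissue. Numbers at the 8 limb mesenchyme markers, scaled to the median library and summed, were 175 and 166 in LM and 3.49 to 104 in the others, with CF next. Prrx1, the general marker of limb mesenchyme, had 30 and 36 interactions in LM, 17 and 22 in CF and 0 in the other 10 libraries. The neural markers Sox2, Pax6 and Neurod1 had 0 in both LM libraries. So did Klf1, Myf5 and the ectoderm and endothelial markers, which were at or near 0 in the other tissues too and so do not bear on the label. The other markers did not set LM apart as limb. Of muscle, Pax3 had 0 and 3 in LM, 3 to 15 in the neural and CF libraries and 0 in LV, and Myod1 0 and 1 in LM and 0 to 3 elsewhere. The cartilage markers Sox9 and Col2a1 summed to 25.5 and 32.5 in LM, 28.1 and 35.9 in FB and 0 to 16.8 elsewhere, as scaled numbers. The tests below compare 2 LM libraries with 12 others, and the LM libraries are the only measure of spread within the limb.

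LM interactions touched LM-only bins slightly more often than those of other tissues. These are the 1810 bins that hold an LM-only peak and no peak of the other 6 tissues. The share of interactions with an end there was 2.38% and 2.23% in LM. It was 2.31% and 2.19% in CF, 1.89% and 2.03% in FB, 1.76% and 1.86% in MB, 1.81% and 1.83% in HB, 1.48% and 1.54% in NT and 1.81% and 1.57% in LV. The LM values lay above those of all tissues except CF, whose libraries overlapped them. The mean was 2.30% in LM and 1.84% ± 0.25 (SD, n = 12) elsewhere, a difference of 0.463 percentage points (exact 2-sided permutation test over 91 splits, p = 0.022, adjusted over 2 shares 0.044, smallest possible 0.011). The splits treat all libraries as independent, although 2 of them come from each tissue. With the tissue as the unit, LM is 1 of 7 and no p under 0.05 is possible. The call was not stable: with any 1 library left out, the adjusted value stayed under 0.05 in 1 of 14 cases, without CF replicate 1 (0.0256), and otherwise ran from 0.0513 to 0.462. Without an LM library the test cannot pass. The adjusted value was also above 0.05 for bins with a motif peak (0.11), without LV (0.0909), with bins that also hold other peaks (0.0659), and over 3 shares with the bins of sites of all 7 (0.0659).

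LM-absent bins had the opposite direction with a difference that did not pass. The 373 bins that hold an LM-absent site and no LM peak took 0.305% and 0.424% of the LM interactions. CF had 0.316% and 0.327%, and the other 10 libraries had 0.456% to 0.728%, with LV the highest. The mean was 0.364% in LM and 0.507% ± 0.12 (SD, n = 12) elsewhere (exact permutation test, p = 0.121, also after adjustment). Bins with sites of all 7 tissues took 75.6% in LM and 74.5% elsewhere (exact permutation test, p = 0.527).

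**Figure D3:**
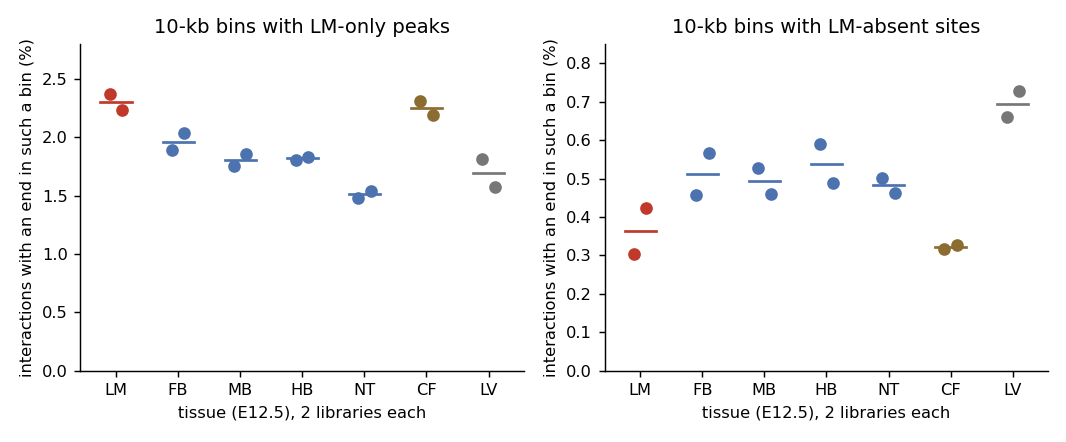
Percent of the interactions of each of 14 libraries with an end in a 10-kb bin that holds LM-only peaks (left) or LM-absent sites (right). Points are libraries and lines the mean of the 2 libraries of a tissue: LM has 2.38% and 2.23% on the left, overlapping CF, and 0.305% and 0.424% on the right, where CF is also low and LV highest.

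Interactions called in LM alone were somewhat more common at LM-only bins. In the pooled calls, which the authors downsampled to the same depth, 1305 of 56013 LM interactions had an end in an LM-only bin. Of these, 450 (34.5%) were called in no other tissue, against 30.9% of the other LM interactions, a difference of 3.56 percentage points. In the single libraries the difference was 2.30 for replicate 1 and 3.01 for replicate 2. The same comparison in each tissue with its own peaks gave positive differences in 7 of 7 tissues, from 2.85 in NT through 4.60 in MB, 5.69 in CF, 5.99 in HB and 7.77 in FB to 24.1 in LV. Their mean was 7.79 ± 7.36 (SD, n = 7) percentage points (exact 2-sided sign-flip permutation test, p = 0.0156, the smallest possible). The test treats the tissues as independent, although the peaks and interactions of each are set against those of the others. LM was among the smallest of these differences, and without LV the mean was 4.84 (exact p = 0.0313, again the smallest possible). The compared interactions also differed in strength. In all 7 tissues the median ratio of observed to expected read pairs was lower at these bins, at 3.33 against 3.45 in LM and 2.70 against 3.05 in LV. The median distance was 250 kb against 290 kb in LM and 130 kb against 180 kb in LV, while FB was longer and NT equal. The part of this in the differences was not tested.

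**Figure D4:**
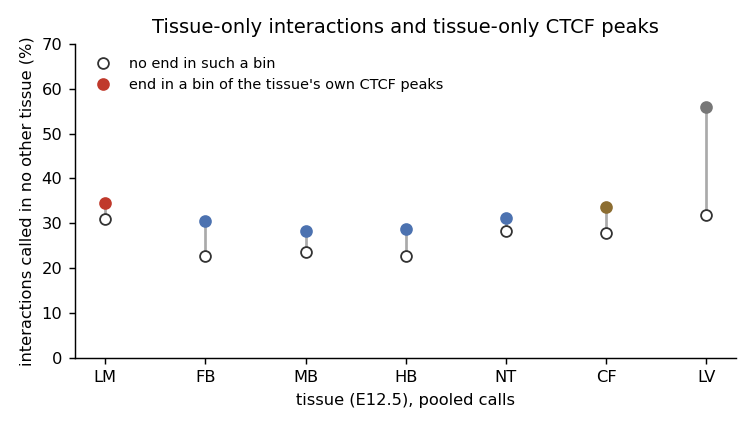
Percent of the pooled interactions of each tissue that no other tissue has, for interactions with an end in a bin of that tissue's own CTCF peaks (filled) and for all its other interactions (open). The filled point lies above the open one in all 7 tissues, by 3.56 percentage points in LM and 24.1 in LV.

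Loop direction followed the motif less closely at LM-only bins than at shared ones. A CTCF motif on the forward strand is known to anchor loops that run downstream. From LM-only bins with forward motifs, 285 of 525 interaction ends (54.3%) ran downstream, and from those with reverse motifs 192 of 428 (44.9%), a gap of 9.43 percentage points. At bins of sites of all 7 tissues the shares were 76.5% and 24.8%, a gap of 51.7. Bin pairs of 1 bin are not independent, and no test was made. In the pooled LM calls, 578 of the 1810 LM-only bins (31.9%) had an interaction, close to 31.5% in NT and 31.6% in CF and above 11.7% in LV. Of 1308 LM interaction ends at these bins, 51.5% joined a bin with a TSS and 56.0% a bin with an LM CTCF peak.

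Single bins were compared by limma on the scaled number of interactions (log2(number + 1), LM minus the mean of the 6 other tissues, adjusted p under 0.05). Of 10363 bins tested, 828 were higher in LM and 1966 lower (27%, of which higher 7.99% and lower 19%). Without scaling the libraries these numbers were 449 and 2305. Of the 1810 LM-only bins, 95 had enough interactions to be tested, and 12 were higher and 14 lower (27.4%), a share near that of all bins. The split of the LM-only bins moved with the settings: 7 were higher and 16 lower without scaling, 2 and 0 with the 12 other libraries as 1 group, and 45 and 7 of 613 with no filter on the mean, where 7.34% were higher against 4.02% of all bins. Of the 373 LM-absent bins, 20 were tested, with 1 higher and 3 lower (20.0%). Over all bins the number passing was 761 without LM replicate 1, 1433 without LM replicate 2 and 291 when the 12 other libraries were taken as 1 group.

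The LM-only bin with the largest increase lay beside Hand2 (chr8:57330001-57340000). It had 9 and 7 interactions in LM, 5 and 5 in CF and 0 to 3 in the other 10 libraries, a log2 difference of 2.41 (SE 0.33, limma adjusted p = 0.000593). The bin of Hoxa10 and Hoxa9 (chr6:52230001-52240000) had 6 and 10 in LM, 7 and 9 in NT and 0 to 6 elsewhere, a log2 difference of 2.05 (SE 0.29, limma adjusted p = 0.000622). In the pooled calls 10 of its 15 LM interactions were found in LM alone, and they reached bins up to 860 kb away. The bin of Mrc2, an endocytic collagen receptor gene, had 4 and 6 in LM and 0 to 4 elsewhere (log2 difference 2.04, SE 0.26, limma adjusted p = 0.000389). Of the lower bins, that of Tlx1, a homeobox gene needed to form the spleen, had 0 and 1 in LM and 0 to 11 elsewhere. Among LM-absent bins, that of Grik3, a glutamate receptor gene, had 0 in both LM libraries, 13 to 43 in the 8 neural ones, 2 and 1 in CF and 0 in LV, a log2 difference of -3.00 (SE 0.28, limma adjusted p = 5.62e-05). The bin of Dscaml1, a neural adhesion gene, had 0 in LM, 3 to 13 in the neural libraries, 1 and 0 in CF and 0 in LV. CF and LV hold the CTCF site of both bins by the rule.

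Genes nearest to the members were then compared by the interactions at their TSS bins. Of 4919 genes tested, 579 were higher in LM and 728 lower (26.6%, of which higher 11.8% and lower 14.8%), and 331 and 869 without scaling. The median log2 difference over all genes was -0.17 with scaling and -0.36 without. Genes within 100 kb of an LM-only peak were 895 of those tested, and 159 (17.8%) were higher and 111 (12.4%) lower, with a median of 0.07. Without scaling their numbers were 86 (9.61%) higher and 145 lower, against 6.73% higher among all genes. Genes within 100 kb of an LM-absent site were 164, of which 17 (10.4%) were higher and 40 (24.4%) lower, with a median of -0.54. The calls fell to 204 genes, 84 higher and 120 lower, when the other 12 libraries were taken as 1 group. Then 20 of the 895 genes near LM-only peaks were higher and 13 lower (3.69%), against 4.15% of all genes. Without LM replicate 1 the number was 461, and without LM replicate 2 it was 752.

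Limb patterning genes passed as higher in LM in similar shares with and without an LM-only peak. With such a peak, 16 of 30 tested were higher and 6 lower, with a median log2 difference of 1.08. Without one, 21 of 43 were higher and 8 lower, with a median of 0.84. Of all genes tested, 11.8% were higher and 14.8% lower. Of the neural list, 1 of 27 was higher and 18 were lower. Of the 16 higher limb genes with an LM-only peak, 12 had scaled numbers in both LM libraries above all 12 others, and Msx1, Osr1, Sall1 and Tbx5 overlapped them. None of the 6 lower genes had LM apart from LV, and 5 of the 6 had LM below all 10 libraries of the other tissues. These genes had already passed the test, so being apart is bound up with that choice. It was not counted over all genes.

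Hand2 had 25 and 32 interactions in LM, 10 and 15 in CF, 7 and 8 in LV and 1 to 7 in the neural libraries. Its log2 difference was 2.88 (SE 0.30, limma adjusted p = 1.71e-05), and LM did not overlap the others. Gli3 had 24 and 37 in LM, 14 and 17 in FB and 0 to 10 elsewhere (log2 difference 3.04, SE 0.49, limma adjusted p = 0.000564). Hoxa11 had 14 and 15 in LM, 4 and 9 in NT, 4 and 8 in FB and 0 in CF and LV (log2 difference 2.94, SE 0.39, limma adjusted p = 0.000134). Hoxa10 had 20 and 25 in LM and 11 and 18 in NT (log2 difference 2.68, SE 0.32, limma adjusted p = 5.2e-05). The NT library with 18 came closest to LM at this gene.

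Other higher genes were Ets2 (19 and 22 interactions in LM and 0 to 6 elsewhere), Bmp4 (16 and 21, next CF with 14 and 19), Shox2 (16 and 35) and Cyp26b1 (30 and 37, next CF with 23 and 28). Their log2 differences were 2.90 at Ets2, 2.54 at Bmp4, 1.94 at Shox2 and 2.03 at Cyp26b1. Msx1, Tbx4, Tbx5 and Spry2 passed with log2 differences from 1.07 to 1.44, and none of these 4 passed without scaling. At Msx1 both CF libraries lay above both LM libraries, with scaled numbers of 18.8 and 19.9 against 7.98 and 12.4. At Osr1 CF was above LM as well, with 12.1 and 25.1 against 9.57 and 11.5. Both genes were higher in LM only against the mean of the other 6 tissues. With the 12 other libraries as 1 group, Ets2, Hand2 and Hoxa11 passed and none of the other limb patterning genes with an LM-only peak did. Of the 22 genes, Evx2, Spry2, Tbx4, Tbx5, En1 and Lhx2 did not pass without LM replicate 1. Msx1, Shox2, Spry2, Tbx4, Tbx5, En1 and Sp8 did not pass without LM replicate 2. The lower genes were the Iroquois genes Irx3 and Irx5, En1, Lhx2, Sp8 and Tfap2c. Irx3 had 2 and 5 interactions in LM, 2 and 2 in LV and 16 to 65 in the other 10 libraries (log2 difference -2.12, SE 0.19, limma adjusted p = 5.42e-06). LM-only peaks lay near both kinds of gene.

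**Figure D5:**
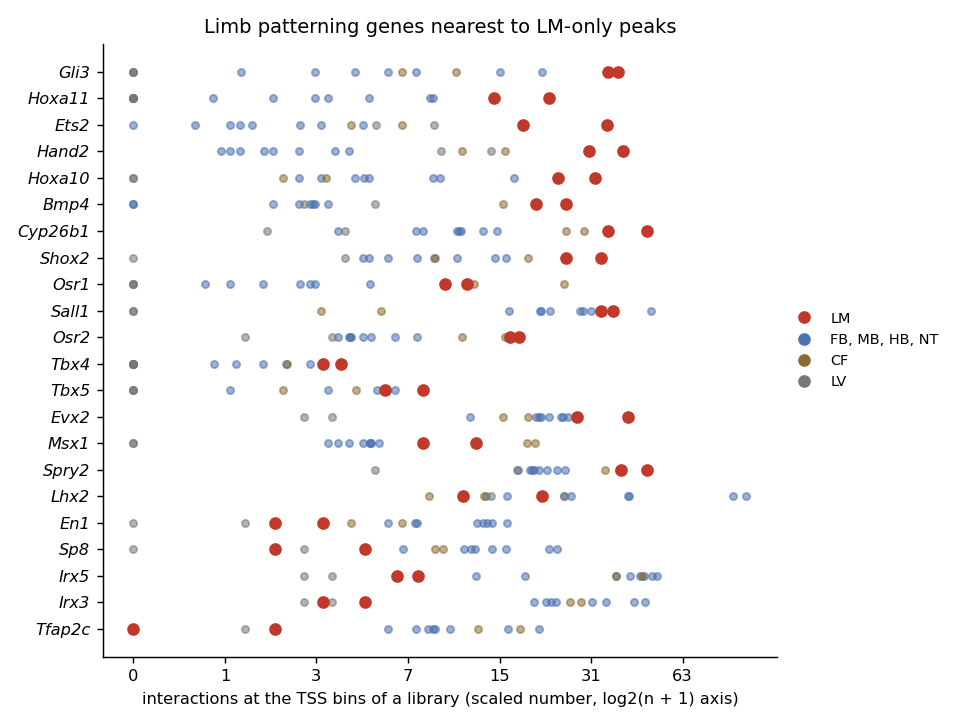
Interactions at the TSS bins of the 22 limb patterning genes that have an LM-only peak and passed the limma test, in each of 14 libraries, as numbers scaled to the median library on a log2(n + 1) axis. Red points are LM. Against the mean of the other 6 tissues, the 16 genes above Lhx2 were higher in LM and the 6 from Lhx2 down lower.

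Genes of the other strong members showed no common direction. Of the genes nearest to the 15 strongest LM-only peaks, Eya4 had 6 and 14 interactions in LM, 8 and 10 in CF and 0 to 1 elsewhere (log2 difference 2.83, SE 0.41, limma adjusted p = 0.000256). Tanc1 had 12 and 15 in LM and 0 to 6 elsewhere (log2 difference 2.91), and Farp1 had 5 and 14 in LM and 0 to 7 elsewhere (1.92). Tanc1 had a limma adjusted p of 0.0519 without LM replicate 1, and Farp1 of 0.0859 without LM replicate 2. Rora, with the strongest peak, had 2 and 8 in LM and 0 to 11 elsewhere (log2 difference 0.46, limma adjusted p = 0.42), and Srgap1 and Xxylt1 did not pass either. The other 9 had too few interactions to be tested. Mecom had 44 and 56 in LM and 0 to 26 elsewhere (log2 difference 2.66), and Ldlrad4 passed with 1.22, while Cacna1a had 0 in LM and 0 to 6 elsewhere (-1.62). 1700018B08Rik, Dab2ip, Smg6 and Syne2 did not pass.

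Where an LM-only peak lay in the TSS bin, 17 of 113 genes were higher and 13 lower (15% and 11.5%, against 11.8% and 14.8% of all genes), and with an LM-absent site there 1 of 34 was higher and 7 were lower. With the 12 other libraries as 1 group these numbers were 0 and 4, and 0 and 1. Higher in LM were 2010111I01Rik (2.36), Emsy (1.62), Slc38a6 (1.61), Col26a1 (1.51), Depdc1b (1.36), Tut4 (1.35) and Uspl1 (1.30) by log2 difference, besides Eya4, Hoxa10 and Tbx4. Lower were Zfp664 (-2.12), Rgs3 (-2.10), Alkbh3 (-1.93), Tlx1 (-1.91), Tfip11 (-1.90) and Srrm3 (-1.87), all with LM-only peaks. Of these 16 genes, 2010111I01Rik, Emsy, Slc38a6, Col26a1, Depdc1b, Tut4, Uspl1, Tbx4, Zfp664, Alkbh3, Tlx1 and Tfip11 did not pass without 1 or the other LM library. Kiz, which encodes a centrosomal protein, and Nol4l had an LM-absent site in their TSS bin, with log2 differences of -2.52 and -1.85. Of the genes of the strongest LM-absent sites, Rpl34 (1.19) and Rasgef1b (0.74) were higher in LM with scaling and did not pass without it. Tnk2, Mta3, Ptprj, Trim24 and Smim27 did not pass, and Onecut1, with its weak LM site, had 0 in both LM and both LV libraries and 3 to 42 in the neural and CF ones (log2 difference -3.37, SE 0.27, limma adjusted p = 2.3e-06).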

How the data were processed

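CTCF ChIP-seq and H3K4me3 PLAC-seq at E12.5 were used. The authors called peaks with MACS2 (p 0.01, mm10), kept those found in both libraries where there were 2, and deposited the fold enrichment ratio over input and −log10 p; ChIP depth is not given in the sources used here. The authors called interactions with MAPS (FDR below 1%, observed over expected at least 2) and deposited the count of read pairs and the expected signal of each bin pair.

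Peaks were merged with bedtools 2.31.1 and annotated with GENCODE M21 on GRCm38 in Python 3.11.15 (numpy 2.4.6, pandas 2.3.3, scipy 1.17.1, matplotlib 3.10.9). A promoter is within 1 kb of a TSS. The motif matrix came from 5000 peaks, with a threshold of 0.0001 per position (strict 1e-05). Chromosome 18 was left out of counts of exact words. Bins and genes with a mean of at least 1 interaction, scaled to the median library, were tested with limma 3.58.1 (R 4.3.3, trend) and Benjamini-Hochberg adjustment, after tests on simulated data. Replicate numbers did not pair the samples (r from -0.0513 to 0.0254).

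Named genes were nearest to the 15 strongest LM-only peaks, the 10 strongest LM-absent sites and up to 10 sites per direction past the 2-fold rule, or had the most LM-only peaks (up to 10), a member in the TSS bin (up to 10 per direction), or a place in the limb patterning list beside a member. A gene that this rule names is not reported here. Members and the 8 gene lists were chosen with earlier results of these data known. Alternatives were other overlaps, thresholds, scalings, left-out libraries and a second list per tissue, where LB was read as limb. Input libraries and contact maps were not used here.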

Additional observations from a re-analysis of the deposited data

Results flagged for a closer look

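Of 9 measures compared over the 7 tissues by Dixon's test (critical value 0.568), LV stood apart from the others in 4, and LM in none. Chance alone flags about 1 in 20 groups. LV lacked 2446 sites that the other 6 tissues hold. At sites of all 7 tissues it was at least 2-fold above the rest at 474 and at or below 0.5 of the lowest at 619. The excess of LV-only interactions at bins of LV-only peaks was 24.1 percentage points. Both CTCF libraries of LV are technical replicates by title, and the part of this in the values was not tested.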

How the results depend on the processing

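LM-only peaks numbered 845 when every list was limited to a −log10 p of at least 10, 1496 with the 40000 strongest peaks of each list, and 251 when LM peaks at that p were set against every listed peak, and 2851 to 4190 under the other alternatives. LM-absent sites numbered 983 without LV and 443 to 720 otherwise. LM-only peaks had a median percentile of 10.8 in the LM list by −log10 p. At sites of all 7 tissues, 62 passed the 2-fold rule without scaling, 435 passed a 1.5-fold rule and 63 passed with the second lists. The motif share was 50.2% at the strict threshold. At limb patterning genes the LM-only share was 7.02% at a −log10 p of at least 10 (2.35% of all peaks) and 16.1% without CF. The share itself and its alternatives were added after seeing the data. The difference in interaction share at LM-only bins was 0.371 with motif peaks only, 1.43 with bins that also hold other peaks, 0.433 without LV and 0.463 with adjustment over 3 shares, each with an adjusted p above 0.05. It was 0.392 to 0.534 without single libraries, and at LM-absent bins -0.202 to -0.0832. Without an LM library only 13 splits exist, and p cannot go below 0.05.

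With LM against the 12 other libraries as 1 group, 291 bins and 204 genes passed. With no filter on the mean 2232 bins were higher and 1363 lower, a split opposite to that with the filter. Without single libraries the counts were 761 to 2913 for bins and 461 to 1416 for genes, where a lone LM sample is assumed to vary like the other groups. Of the 49 named genes that passed, 42 lost the call with 1 group, 22 without LM replicate 1 and 16 without LM replicate 2. Ets2, Hand2, Hoxa11, Kiz and Rgs3 kept it in every alternative, and no gene reversed while called. With the replicate block 2685 bins and 1281 genes passed, the exact permutation test of the share at LM-only bins gave p = 0.0204 (adjusted 0.0408), and no call of a named gene changed. The 2 LM libraries limit all comparisons of interactions.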
